A study of Mus musculus with 6 samples.

Results

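Expression of 8 cartilage genes was examined in mouse embryonic fibroblasts with and without the R206H allele of Acvr1. The genes were chosen by symbol from the 49315 genes of the deposited expression table. They are 3 chondrocyte transcription factors (Sox9, Sox5 and Sox6) and 5 genes for cartilage matrix or cartilage surface proteins (Acan, Matn1, Matn3, Hapln1 and Cnmd). All 8 were found, and all 8 passed the filter on low values that 14818 genes passed.

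Wild-type cells (Acvr1+/+) were compared with cells heterozygous for the mutation (Acvr1R206H/+). The Acvr1 product is a cell surface kinase that binds BMP and activin ligands, and its R206H form causes most fibrodysplasia ossificans progressiva, where muscle and tendon turn to bone by way of cartilage. Cells of both genotypes came from E13.5 embryos, grew in medium with 10% serum and gave RNA at passage 0, after 2 days in culture, which was depleted of ribosomal RNA and sequenced as 150 bp read pairs. Each genotype had 3 libraries, described by the submitters as biological replicates, and whether an embryo or a pool of embryos gave each library is not given in the sources used here. The labels do not name the strain, the sex of the embryos or the way the allele was made.

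Cartilage cells arise when mesenchymal cells switch on Sox9, which encodes a DNA-binding protein of the SOX family. Sox5 and Sox6 encode related proteins without an activation domain of their own, which help Sox9 protein to act on cartilage genes. Their matrix targets build a hydrated gel on a collagen scaffold: aggrecan (Acan) carries chondroitin sulphate chains, link protein (Hapln1) fixes aggrecan to hyaluronan, matrilin-1 and matrilin-3 (Matn1, Matn3) connect collagen fibrils with proteoglycans, and chondromodulin (Cnmd) restrains blood vessel growth into cartilage. In embryonic fibroblast cultures such genes may come from a mixed population, and in bulk RNA fewer cells of a type and less RNA per cell cannot be told apart.

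Values are TPM (transcripts per 1000000), a per-length share of each library. Estimated depth was 17500000 to 24600000 assigned reads or read pairs per library. Wild-type library 1 stood apart on the second principal component over all genes tested, at 34.1 against -16.3 to 4.8 in the other 5. The labelled cell type was checked against 11 fibroblast markers, whose summed level was 5787 to 7579 TPM in wild type and 9107 to 11737 TPM in R206H. Limma passed 0 of these markers. Before adjustment 8 of them reached p under 0.05, where 26.1% of all genes did, and voom called 6, where it called 8.73%. The cartilage collagen gene Col2a1 was also present, at 124 to 291 TPM over the 6 libraries. Changes are given as log2(TPM + 1) in R206H minus wild type, tested with limma across all genes with Benjamini-Hochberg adjustment. Of all genes tested, 2.04% passed an adjusted p of 0.05, 1.26% higher and 0.79% lower in R206H, and the median change was 0.02.

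Matn1, Cnmd and Hapln1 are the members whose levels varied most among the libraries, and their promoters are shown here for that reason. Each window runs from 250 bases before to 50 bases after the RefSeq transcription start (GRCm38.p6) and is written 5′ to 3′ on the gene's own strand. Capitals mark matches to the E-box CANNTG or to the SOX core motifs ACAAT and ACAAAG, searched on both strands. The windows are chr4:130944135-130944434 on the plus strand for Matn1, chr14:79662134-79662433 on the minus strand for Cnmd and chr13:89540386-89540685 on the plus strand for Hapln1.
Matn1: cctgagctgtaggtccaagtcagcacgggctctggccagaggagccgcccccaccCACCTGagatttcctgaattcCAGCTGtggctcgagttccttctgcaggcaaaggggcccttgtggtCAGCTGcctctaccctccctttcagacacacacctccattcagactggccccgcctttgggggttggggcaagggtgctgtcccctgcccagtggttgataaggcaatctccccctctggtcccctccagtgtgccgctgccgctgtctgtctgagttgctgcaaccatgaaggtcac
Cnmd: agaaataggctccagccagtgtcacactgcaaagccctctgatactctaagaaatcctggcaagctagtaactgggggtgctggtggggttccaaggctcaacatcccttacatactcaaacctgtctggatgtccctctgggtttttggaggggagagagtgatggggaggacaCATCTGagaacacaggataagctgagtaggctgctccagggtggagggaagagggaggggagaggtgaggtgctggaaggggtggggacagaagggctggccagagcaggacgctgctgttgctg
Hapln1: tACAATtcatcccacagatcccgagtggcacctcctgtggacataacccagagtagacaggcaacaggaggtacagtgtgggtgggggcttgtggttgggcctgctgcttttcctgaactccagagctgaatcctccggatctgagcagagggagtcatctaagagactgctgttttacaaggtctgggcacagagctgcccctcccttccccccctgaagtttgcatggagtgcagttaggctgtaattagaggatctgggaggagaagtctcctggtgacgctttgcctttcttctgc

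The Matn1 window held 3 E-boxes and the Cnmd window 1, and neither held a SOX core. In the Hapln1 window there was 1 ACAAT, 249 bases before the start, and no E-box. These letters are common: 72.3% of 32851 promoter windows held an E-box, 31% held ACAAT, 18.7% held ACAAAG and 42.9% held either SOX core. The search describes letters in a window of 300 bases and does not show binding. Windows were matched for 7 of the 8 genes (all but Sox9), and GC content was 61.3% for Matn1, 56% for Cnmd and 54.3% for Hapln1, against a median of 52.7%.

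In R206H cells, 0 of the 8 genes passed the threshold with limma, where 2.04% of all genes did. At an unadjusted p under 0.05 there were 2, Matn1 and Cnmd, where 26.1% of all genes tested reached that p, and voom on rebuilt reads also called 0, where it called 8.73% of all genes. All 3 regulators had small positive changes and all 5 matrix genes had negative ones, with medians of 0.17 and -0.65. The genotypes overlapped in every member, whereas they did not overlap in 32.9% of all genes tested. With 3 libraries against 3, an exact two-sided permutation test cannot go below 0.1, and the members' values ran from 0.2 to 0.7.

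**Figure D1:**
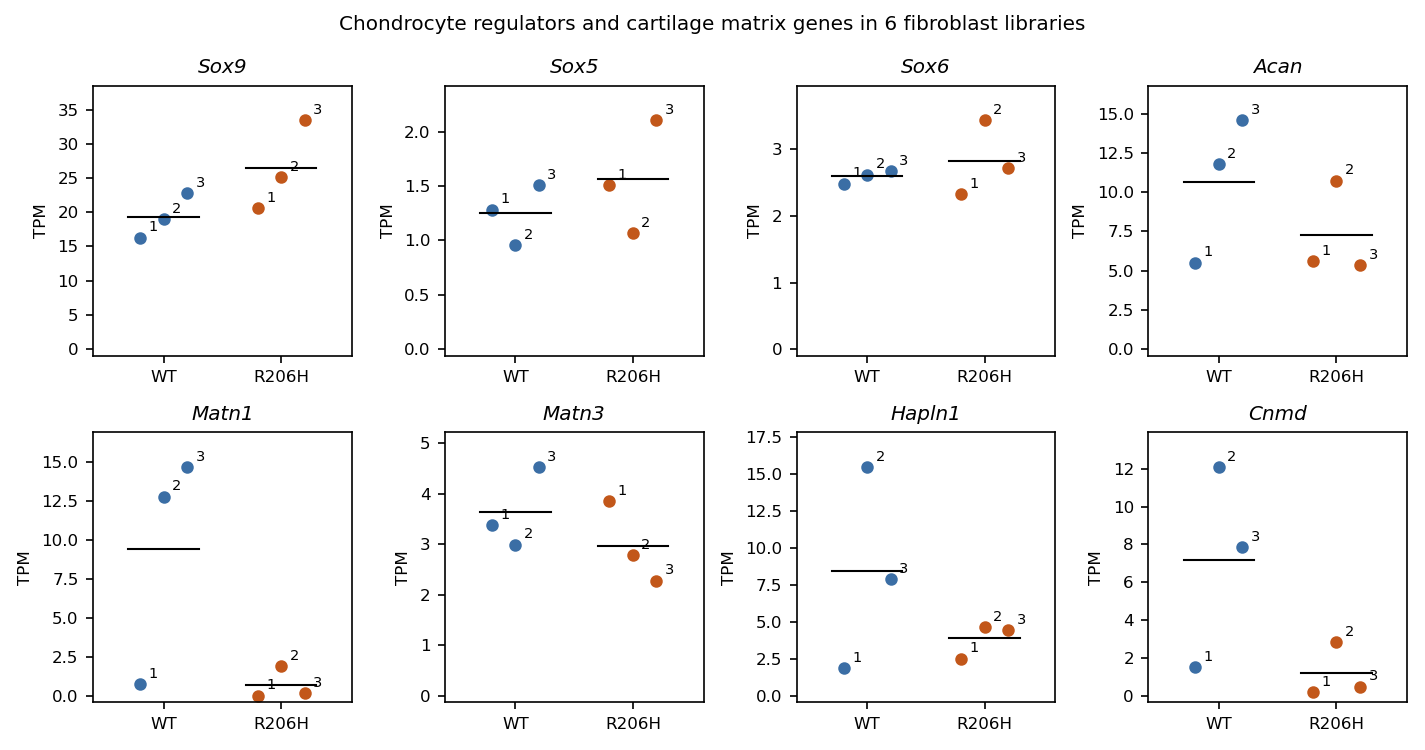
TPM of each member in every library, with wild type (WT) in blue, R206H in orange, the library number beside each point and a black line at the group mean (n = 3). Wild-type libraries 2 and 3 are the highest for Acan, Matn1, Hapln1 and Cnmd, while wild-type library 1 lies among or near the R206H libraries.

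Sox9 was the most abundant member in both genotypes. This gene (chromosome 11, 112782224 to 112787760, GRCm38) was measured at 16.3, 18.9 and 22.8 TPM in wild-type libraries 1, 2 and 3, and at 20.6, 25.2 and 33.4 TPM in R206H libraries 1, 2 and 3. The groups overlapped, because wild-type library 3 lay above R206H library 1. The mean was 26.4 ± 6.51 TPM in R206H against 19.4 ± 3.28 TPM in wild type (SD, n = 3), a ratio of 1.36. The log2 change was 0.41 (95% interval -0.03 to 0.86) and did not pass (limma adjusted p = 0.218).

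Sox5 (chromosome 6, 143828425 to 144781977) was the least abundant regulator. Its wild-type libraries 1, 2 and 3 had 1.28, 0.956 and 1.51 TPM, and its mutant libraries, in the same order, 1.51, 1.07 and 2.10 TPM. R206H library 3 was the highest and wild-type library 2 the lowest, with the other 4 interleaved, and the log2 change was 0.17 (95% interval -0.37 to 0.72, limma adjusted p = 0.676). Sox6 (chromosome 7, 115470872 to 116038796) varied little within wild type, at 2.49, 2.62 and 2.68 TPM, against 2.33, 3.44 and 2.72 TPM in R206H. R206H library 1 was the lowest and R206H library 2 the highest of all 6, and the log2 change of Sox6 was 0.08 (95% interval -0.32 to 0.48, limma adjusted p = 0.8). The intervals of both SoxD genes therefore leave room for changes of either sign.

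Of the closest relatives of these regulators, Sox10 alone passed. Sox10, a SoxE gene of neural crest and glia, fell from 17.8 ± 3.24 to 7.81 ± 2.09 TPM (log2 change -1.10, SE 0.193, limma adjusted p = 0.0476), and this call was lost with every library left out except R206H library 1 (adjusted p = 0.0602 to 0.166). The neural crest and glia list of 10 genes, which includes Sox10, had 9 tested, 3 lower and 0 higher with limma, where 0.79% of all genes were lower. Before adjustment 7 reached p under 0.05 with limma, where 26.1% of all genes did, and voom called 5, where it called 8.73% of all genes. The list had a summed level of 59.9 to 92.3 TPM in R206H against 129 to 137 TPM in wild type. Its part in the levels of Sox9 and Sox5, which neural crest cells also express, was not tested. Sox8 had 1.71 ± 0.369 TPM in wild type and 1.78 ± 0.52 in R206H. Sox13, the remaining SoxD gene, had 7.30 ± 1.79 and 4.66 ± 0.478 TPM and did not pass (log2 -0.53, limma adjusted p = 0.12).

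Matn1 showed the widest spread of all members. This gene, on chromosome 4 from 130944385 to 130955475, had 0.742, 12.8 and 14.7 TPM in wild-type libraries 1, 2 and 3, and 0, 1.89 and 0.176 TPM in R206H libraries 1, 2 and 3. Wild-type libraries 2 and 3 were thus high, while wild-type library 1 lay below R206H library 2. The reads behind these values were 7, 173 and 183 in wild type and 0, 18 and 2 in R206H, and 0 reads in R206H library 1 allows up to 0.256 TPM (3 reads, counting error only). Mean wild-type TPM was 13.7 times that of R206H, or 107 times without R206H library 2, when only 2 reads remain in that group. The log2 change was -2.26 (95% interval -4.30 to -0.22, unadjusted) and did not pass (limma adjusted p = 0.159). Its size depended on the scale, at -3.84 with a pseudocount of 0.1, -1.17 with one of 5 and -4.68 with voom, and it did not pass in any of these (adjusted p = 0.155, 0.161 and 0.191).

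Cnmd (chromosome 14, 79637690 to 79662170) was high and low in much the same libraries as Matn1. It had 1.5, 12.1 and 7.85 TPM in wild-type libraries 1, 2 and 3, and 0.185, 2.85 and 0.477 TPM in R206H libraries 1, 2 and 3. The counts were 13, 151 and 90 reads in wild type and 2, 25 and 5 in R206H. Wild-type library 1 again lay below R206H library 2, so the groups overlapped. Wild type was 6.11 times R206H, and this ratio became 3.99 when wild-type library 2 was dropped and 21.6 when R206H library 2 was. The log2 change was -1.81 (95% interval -3.42 to -0.19, unadjusted; limma adjusted p = 0.158), against -2.77 and -0.89 with pseudocounts of 0.1 and 5 and -3.16 with voom (adjusted p = 0.156, 0.165 and 0.121).

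Acan and Hapln1, whose products bind each other and hyaluronan, had smaller differences in the same direction. Acan (chromosome 7, 79053483 to 79115099) was measured at 5.51, 11.8 and 14.6 TPM in wild-type libraries 1, 2 and 3, and at 5.63, 10.7 and 5.37 TPM in R206H libraries 1, 2 and 3. Wild-type library 1 and R206H libraries 1 and 3 had close to the same low level, below the other 3 libraries, and the log2 change was -0.46 (95% interval -1.33 to 0.41, limma adjusted p = 0.469). Hapln1 (chromosome 13, 89539796 to 89611652) had 1.85, 15.5 and 7.88 TPM in wild type and 2.5, 4.65 and 4.45 TPM in R206H. Its lowest and its highest library were both wild type. Wild type was 2.17 times R206H, or 1.26 times once wild-type library 2 was dropped, and the log2 change was -0.65 (95% interval -2.05 to 0.75, limma adjusted p = 0.532). A processed pseudogene on the opposite strand inside Hapln1 had at most 0.674 TPM.

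Matn3, the other matrilin of growth cartilage, did not share this pattern. Matn3 (chromosome 12, 8947929 to 8972028) had 3.38, 2.99 and 4.53 TPM in wild-type libraries 1, 2 and 3, and 3.86, 2.79 and 2.28 TPM in R206H libraries 1, 2 and 3. Wild-type library 1 stood inside its own group here. The log2 change was -0.23 (95% interval -0.72 to 0.27, limma adjusted p = 0.537). The broadly expressed matrilin gene Matn2 had 38.2 ± 2.91 TPM in wild type and 45.9 ± 14.3 in R206H, and Matn4 had 3.93 ± 2.98 and 1.6 ± 1.18. Neither passed (limma adjusted p = 0.522 and 0.306).

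By mean level, the order of the members differed between the genotypes. In wild type it ran Sox9, Acan (10.6 ± 4.65 TPM), Matn1 (9.41 ± 7.56), Hapln1 (8.41 ± 6.84), Cnmd (7.15 ± 5.34), Matn3 (3.63 ± 0.802), Sox6 (2.59 ± 0.0975) and Sox5 (1.25 ± 0.278). The neighbours from Acan to Cnmd were closer to each other than their own SDs. In R206H, Acan (7.24 ± 3.03 TPM), Hapln1 (3.87 ± 1.19), Matn3 (2.97 ± 0.807), Sox6 (2.83 ± 0.563) and Sox5 (1.56 ± 0.521) came after Sox9, and Cnmd (1.17 ± 1.46) and Matn1 (0.688 ± 1.04) were last. Summed over the 5 matrix genes, wild-type libraries 1, 2 and 3 had 13.0, 55.2 and 49.6 TPM, and the mutant libraries had 12.2, 22.9 and 12.8 TPM in the same order. The sum in wild-type library 1 thus lay within the R206H range, while the other wild-type libraries were above it.

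Leaving out single libraries moved Matn1, Cnmd, Hapln1 and Acan more than the regulators. Without wild-type library 1, Matn1 passed the threshold, with a log2 change of -3.29 (limma adjusted p = 0.0431, over a range of 0.0431 to 0.379 across its alternatives), and Cnmd, Hapln1 and Acan had -2.51, -1.35 and -0.84 without passing (limma adjusted p = 0.061, 0.077 and 0.135). Without wild-type library 2, the change of Hapln1 shrank to -0.08. Sox9 stayed between 0.24 and 0.57 over its alternatives, with an adjusted p of 0.104 to 0.469, and Sox6 turned to -0.03 without R206H library 2. In the library left out here, wild-type library 1, the 7 endothelial markers summed to 34.3 TPM. They summed to 13.8 and 16.1 TPM in the other wild-type libraries and 8.19 to 14.0 in R206H. Of 4 tested, limma passed 0 (1 before adjustment, at p under 0.05, where 26.1% of all genes did) and voom 0. The markers were split. Cdh5, Pecam1, Tie1 and Cldn5 had 11.2, 4.22, 2.54 and 3.75 TPM in wild-type library 1, and at most 2.67 TPM in the other wild-type libraries. Of these, only Cdh5 was tested. Kdr had 8.15 TPM, against 8.25 and 9.09, Tek 1.35, against 0.973 and 1.16, and Emcn 3.02, against 1.67 and 2.76. The part of endothelial cells in the levels of the matrix genes was not tested.

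**Figure D2:**
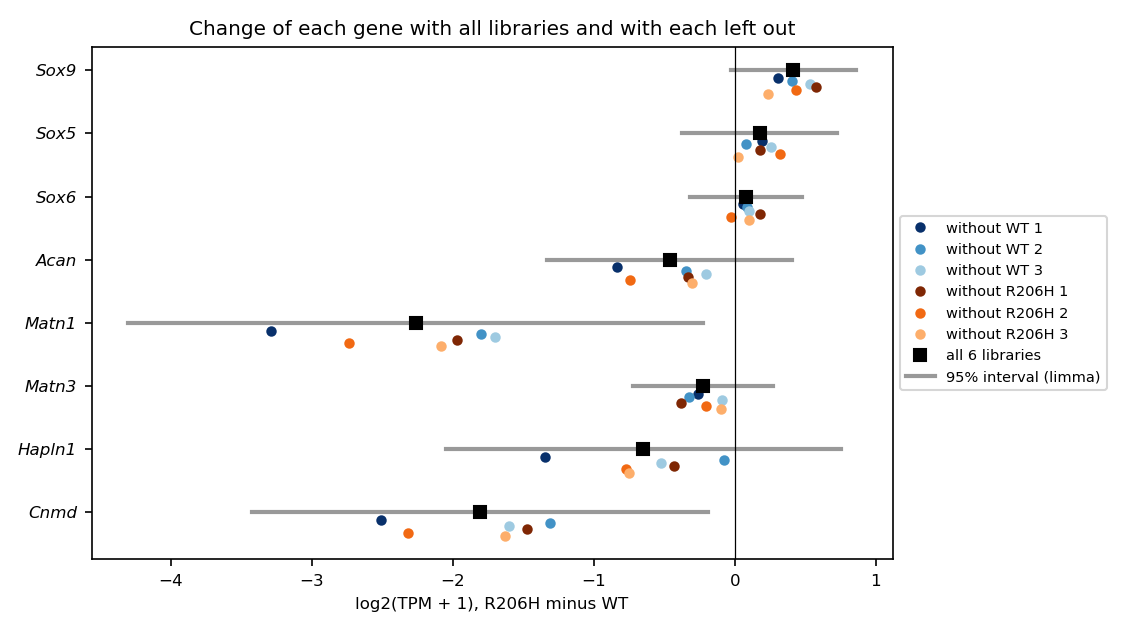
Change of each member on the log2(TPM + 1) scale, R206H minus wild type, with all 6 libraries (black square, grey bar for the unadjusted 95% limma interval) and with each library left out in turn (coloured points, drawn below the square only to keep them apart). Leaving out wild-type library 1 moved Matn1, Cnmd, Hapln1 and Acan furthest down, to -3.29, -2.51, -1.35 and -0.84.

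The order of the libraries was shared by 4 of the 5 matrix genes. In Acan, Matn1, Hapln1 and Cnmd, wild-type libraries 2 and 3 were the highest and R206H library 2 came next. This order, noticed after the values were seen, held in 1.84% of all 14818 genes tested. It also held in Col9a1, Col9a2, Col9a3, Col11a2, Comp and Cytl1, that is in 4 of 8 cartilage collagen genes and 2 of 7 other cartilage matrix genes tested. Of 17 other cartilage regulators and 8 genes of aggrecan breakdown, 0 had it, and Csgalnact2 had it among 10 genes of chondroitin sulphate synthesis.

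The genes whose profile was nearest to the 5 matrix genes were the 3 type IX collagen genes. Nearness was the root mean square difference between gene-centred log2(TPM + 1) values over the 6 libraries, compared for all tested genes with an assigned symbol outside the members. It was 0.149 for Col9a2, 0.205 for Col9a1 and 0.231 for Col9a3, which encode the chains of a collagen that coats cartilage fibrils. Among 8 alternatives added after the values were seen, all 3 were the nearest in 3, and in the other 5 between 1 and 2 of them were. Wild-type and R206H means were 11.6 ± 7.28 and 3.83 ± 2.26 TPM for Col9a1, 11.0 ± 5.75 and 4.82 ± 2.57 for Col9a2, and 11.8 ± 5.10 and 4.29 ± 2.55 for Col9a3. As with the members, none of the 3 passed (limma adjusted p = 0.233, 0.242 and 0.123), and wild-type library 1 had only 3.22, 4.38 and 5.94 TPM.

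**Figure D3:**
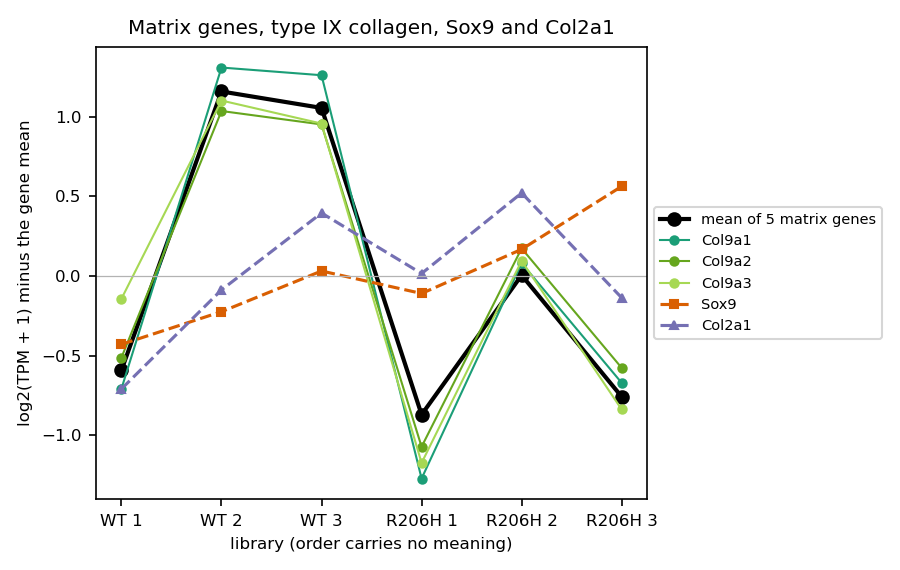
Gene-centred log2(TPM + 1) in each library for the mean of the 5 matrix genes (black), the 3 type IX collagen genes (green), Sox9 (orange) and Col2a1 (purple), where lines join libraries only to show each profile. The collagen IX genes lie close to the black line, at root mean square differences of 0.149 to 0.231, while Sox9 is highest in R206H library 3.

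The regulators had no such distinct neighbours. Nearest to Sox9 were Abhd14b, Cryzl2 and Cln6, at 0.0603 to 0.0782, but 564 genes lay within 0.2 of it, against 1 gene within 0.2 of the matrix profile. For Sox6 the nearest were Cox16, Mospd2 and Ccdc174, with 6612 genes within 0.2, and 2595 genes lay within 0.2 of Sox5. A gene that varies little over 6 libraries is close to many others by this measure.

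The other cartilage genes gave 2 higher and 2 lower calls among 50 tested of 62 listed, or 4 of 50 where 2.04% of all genes passed. Cartilage collagens included Col11a1, a chain of type XI collagen that fibroblasts also make, which rose from 50.2 ± 1.53 to 75.8 ± 10.9 TPM (log2 change 0.57, SE 0.106, limma adjusted p = 0.0496). This call was lost with each library left out except R206H library 1 (adjusted p = 0.0698 to 0.166), and with all libraries kept it was lost at pseudocounts of 0.1 and 5 (adjusted p = 0.0524 and 0.0505), with median-of-ratios scaling (0.0507), quantile normalization (0.0517), no trend (0.0969) and no filter (0.11). Of the other calls, those of Sox10 and Mmp13 were lost at a pseudocount of 0.1 (adjusted p = 0.0504 for both), with no trend (0.0888 and 0.09) and with no filter (0.11 for both), that of Sox10 also with quantile normalization (0.0512), and that of Chsy3 with no filter (0.0782). With library number added to the fit as a replicate block, all 4 calls were lost, and 0 of all genes passed. Col11a2, the more cartilage-restricted type XI chain, had 12.5 ± 5.76 TPM in wild type and 3.69 ± 2.43 in R206H and did not pass (log2 -1.54, limma adjusted p = 0.0939), although voom called it (adjusted p = 0.0472, over a range of 0.0472 to 0.26 across its alternatives). Col2a1, the main cartilage collagen and a target of Sox9 protein, had 193.7 ± 71.7 and 226.8 ± 56.8 TPM (log2 0.27, limma adjusted p = 0.598). Col10a1, a marker of hypertrophic chondrocytes, had 1.96, 12.5 and 6.42 TPM in wild-type libraries 1, 2 and 3, and 10.8, 19.6 and 18.0 TPM in R206H libraries 1, 2 and 3. Its log2 value of 1.32 lay on the opposite side from the matrix members and did not pass (limma adjusted p = 0.169).

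Of 16 other cartilage matrix genes, 15 were found, 7 were tested, and limma passed 0 (also 0 before adjustment, at p under 0.05) and voom 0. Comp, a pentameric matrix protein of cartilage and tendon, had 4.07, 27.7 and 16.2 TPM in wild-type libraries 1, 2 and 3, and 1.38, 6.51 and 5.87 TPM in R206H libraries 1, 2 and 3. The pattern resembled that of Hapln1, with wild-type library 2 highest, and the log2 value was -1.45 (limma adjusted p = 0.236). Cytl1 and Scrg1, genes first known from cartilage or chondrogenic cells, had log2 values of -1.16 and -0.61 (limma adjusted p = 0.442 and 0.502). Hapln3, a relative of Hapln1 that lies beside Acan, stayed under the filter at 0.126 to 0.836 TPM.

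**Figure D4:**
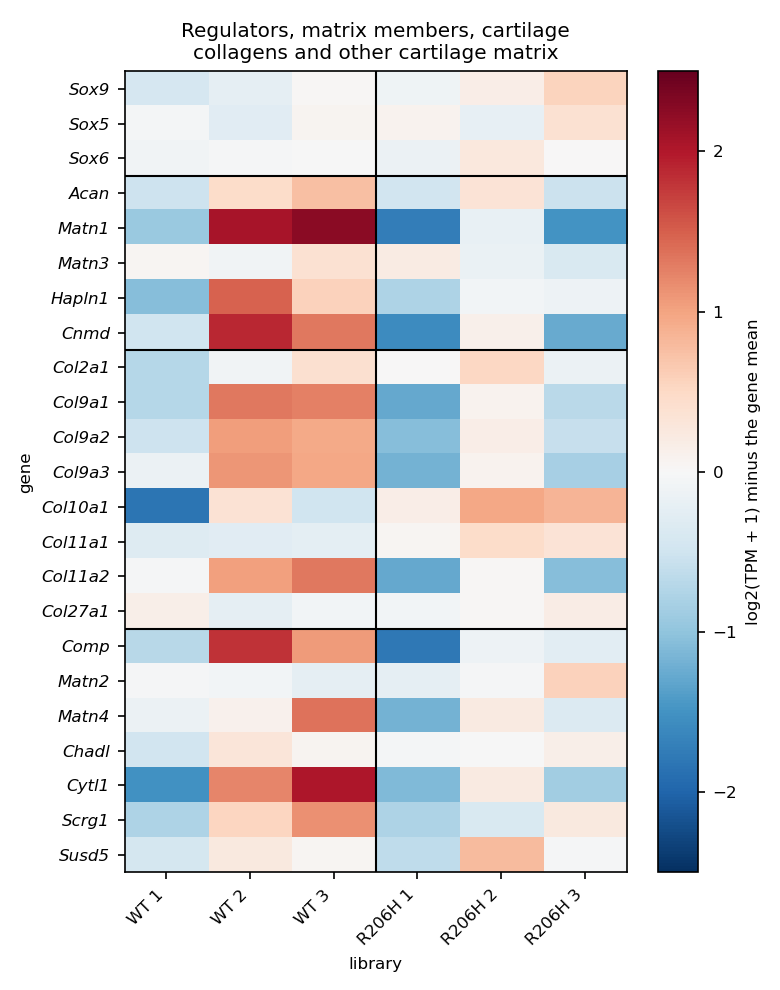
Gene-centred log2(TPM + 1) in each library for the regulators, the matrix members, the cartilage collagens and the other cartilage matrix genes tested, in blocks from top to bottom, with red above and blue below the gene's mean. Matn1, Cnmd, the type IX collagen genes, Col11a2 and Comp are red in wild-type libraries 2 and 3 and blue in R206H libraries 1 and 3, while Col10a1 and Col11a1 are red in R206H libraries 2 and 3.

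Among 20 other regulators of cartilage, 17 were tested, 1 fell (Sox10, above) and 0 rose, where 0.79% of all genes fell and 1.26% rose. Before adjustment 5 reached p under 0.05, where 26.1% of all genes did. In 5 the genotypes did not overlap, where 32.9% of all genes did not. Pth1r, the receptor for parathyroid hormone-related protein, had 20.4 ± 2.74 TPM in wild type and 41.3 ± 14.7 in R206H (log2 0.93, limma adjusted p = 0.0823). Runx2, a factor of hypertrophic cartilage and bone, had 17.0 ± 1.99 and 22.9 ± 2.43 TPM (log2 0.41, limma adjusted p = 0.0887). In both genes every R206H library lay above every wild-type library, as in 17.9% of all genes tested, and neither passed.

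Genes that build the sugar chains of aggrecan gave a single call with limma. Of 10 genes of chondroitin sulphate synthesis, 1 rose and 9 did not pass, where 1.26% of all genes rose. Before adjustment 6 reached p under 0.05, where 26.1% of all genes did. In 5 the genotypes did not overlap, where 32.9% of all genes did not. Changes were positive in 8 and negative in 2, with a median of 0.23, beside 7949 positive changes among all 14818 genes tested and their median of 0.02. Chsy3, a chondroitin sulphate chain polymerase, rose from 8.48 ± 0.937 to 18.2 ± 1.46 TPM (log2 change 1.02, SE 0.111, limma adjusted p = 0.0272), a call that was lost when wild-type library 2 or 3 or R206H library 2 or 3 was left out (adjusted p = 0.0704 to 0.152). Chsy1, Slc26a2, a sulphate transporter, and Csgalnact1 missed the threshold at log2 values of 0.23, 0.36 and 0.70 (limma adjusted p = 0.0767, 0.102 and 0.126). Voom called 2 of the 10, Chsy3 and Slc26a2, where it called 8.73% of all genes. With library weights, which passed 1906 of 14818 genes, Chsy1 passed as well as Chsy3 (limma adjusted p = 0.0264 and 0.0106).

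Of 8 genes of aggrecan breakdown or its inhibition, 1 fell and 0 rose with limma, where 0.79% of all genes fell and 1.26% rose. Changes were positive in 6, which include the inhibitor gene Timp3, and negative in 2, with a median of 0.26. Among all 14818 genes tested, 7949 changes were positive and the median was 0.02. Voom called 4 of the 8, Mmp13 lower and Adamts1, Adamts4 and Adamts9 higher, where it called 8.73% of all genes. Mmp13, a collagenase of hypertrophic cartilage, fell from 27.6 ± 2.13 to 11.6 ± 3.59 TPM (log2 change -1.22, SE 0.21, limma adjusted p = 0.0476), and lost its call with each library left out except R206H library 1 (adjusted p = 0.0569 to 0.166). The aggrecanase gene Adamts4 had 9.79 ± 4.88 and 20.05 ± 5.50 TPM (log2 1.02, limma adjusted p = 0.107). Adamts9 and Adamts1 had 0.74 and 0.63 (limma adjusted p = 0.0617 and 0.0889). Vcan, which encodes versican, the large aggregating proteoglycan of fibroblasts, had 68.8 ± 14.8 TPM in wild type and 101.6 ± 6.88 in R206H, with no overlap (log2 0.57, limma adjusted p = 0.0727). Bcan and Ncan are its other relatives, and of these 3 genes 2 were tested, of which limma passed 0 (1 before adjustment, at p under 0.05) and voom 1, Vcan (adjusted p = 0.0326, over a range of 0.0186 to 0.211 across its alternatives). Acan, of the same proteoglycan family, had the opposite sign, and the difference between both genes was not tested.

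Markers of other cell types were measured in the same libraries, and the lists differed in whether any gene passed. Of 12 epithelial markers, 10 were tested, and 2 were lower and 0 higher with limma, where 0.79% of all genes were lower and 1.26% higher. Before adjustment 10 reached p under 0.05, all lower, where 26.1% of all genes reached that p. Voom called 6, where it called 8.73% of all genes. The summed level of the list was 197.2 to 399.7 TPM in R206H against 544.5 to 638.4 TPM in wild type. Of 9 osteoblast markers, 7 were tested, and limma passed 0. Before adjustment 6 reached p under 0.05, where 26.1% of all genes did, and voom called 1, where it called 8.73%. Their sum was 1768 to 1927 TPM in R206H against 1991 to 2312 TPM in wild type, nearly all of it Spp1 (1832 ± 71.6 and 2086 ± 137.6 TPM). The median log2 change of the list was -1.07, with 6 of 7 values negative. Ibsp, which encodes bone sialoprotein, had 50.1 ± 25.4 TPM in wild type and 5.60 ± 7.36 in R206H (log2 -3.48, limma adjusted p = 0.0735). Alpl, the alkaline phosphatase gene of mineralizing cells, had 5.65 ± 2.48 and 1.96 ± 1.25 TPM (log2 -1.18, limma adjusted p = 0.117) and the same order of all 6 libraries as Cnmd. The 12 skeletal muscle markers, from cells that also express Sox6, had 11 tested, of which limma passed 0 (also 0 before adjustment, at p under 0.05) and voom 0, at 551.6 to 1012 TPM in R206H and 668.3 to 878.9 TPM in wild type. Tendon markers, from a lineage that shares Sox9 and Comp with cartilage, had 2 of 5 higher with limma (Tnmd and Fmod), where 1.26% of all genes were. Before adjustment 3 reached p under 0.05, where 26.1% of all genes did, and voom called 2, where it called 8.73%. Their sum was 262.4 to 376.1 TPM in R206H and 145.6 to 220.6 TPM in wild type. Much of it was Egr1 (162.1 ± 44.2 and 103.8 ± 42.7 TPM). Scx had 39.5 ± 9.88 and 37.2 ± 7.66 TPM and did not pass (limma adjusted p = 0.833). Of 8 neuronal markers, 5 were tested, 2 were higher (Tubb3 and Prph), where 1.26% of all genes were, and 3 did not pass. Their sum was 81.5 to 104 TPM in R206H and 40.5 to 53.2 TPM in wild type, most of it Tubb3 (71.3 ± 7.86 and 31.2 ± 8.51 TPM). The 7 macrophage markers spanned 46.2 to 108.2 TPM in R206H and 55.0 to 87.8 TPM in wild type, and of 5 tested, limma passed 0 (1 before adjustment, at p under 0.05) and voom 0. In the red blood cell lineage list, Hba-a1, Hba-a2, Hbb-bs and Hbb-bt were listed at 0 in every library, and the list summed to at most 2.86 TPM. The part of these cell types in the levels of the 8 genes was not tested.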

How the data were processed

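RNA from 6 mouse embryonic fibroblast cultures was sequenced, 3 of each genotype. The deposited values are TPM for 49315 Ensembl genes. The submitters' processing notes name Trimmomatic, STAR, featureCounts of Subread, DESeq2 and the mouse build mm10 (GRCm38), without stating the role of each; the sources used here give no versions, strand setting or annotation release, so reads of a gene and of an overlapping antisense gene may not be told apart.

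Genes with at least 1 TPM in at least 3 libraries (14818) were tested with limma 3.58.1 in R 4.3.3, with a trended prior on log2(TPM + 1), genotype as the only term and Benjamini-Hochberg adjustment over all of them at 0.05. A fold change on this scale understates the change of genes of low level. A pseudocount of 1 TPM was used. Exact permutation tests were two-sided. Reads were rebuilt from TPM and GENCODE M21 exon lengths of 49056 matched genes; 91.1% to 91.4% of values under 100 reads came out whole within 0.05, which gave the depth and a voom fit as an alternative that called 1290 of 14785 genes (8.73%). Rebuilt reads of Hapln1 were not whole with that length and are not printed. P-values measure the spread between these libraries only. Replicate numbers are not stated to pair the libraries, so the main fit used no pairs.

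The members and gene lists were chosen with earlier results of these data known. Named were the 8 members, every listed cartilage gene past the threshold, up to 4 genes of each cartilage list with the smallest unadjusted p, the closest paralogs and partners of the members, and the 3 genes nearest in profile to the matrix genes and to each regulator. The nearest genes of Sox5 are not reported here. Also named after their values were seen were Csgalnact2, Timp3, Spp1, Ibsp, Alpl, the marker genes at 0, and the lectican genes Bcan and Ncan. The same holds for Tnmd, Fmod, Egr1, Scx, Tubb3, Prph and the endothelial markers. Alternatives covered the pseudocount, filter, scaling, prior, library weights, replicate block, voom and each library left out. Python 3.11.15, pandas 2.3.3 and matplotlib 3.10.9 made the tables and figures.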

Additional observations from a re-analysis of the deposited data

How the results depend on the processing

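With 3 libraries a genotype, low reads limit Matn1 and Cnmd in R206H. Of 175 alternative values of the 8 members, 171 kept their direction and side of the threshold, 2 newly passed (Matn1 without wild-type library 1, under both filters) and 2 reversed (Sox6, under both filters). Matn1 fell under the recomputed filter without wild-type library 2 or 3 or R206H library 2; with genes filtered on all 6 libraries, a setting added after the data were seen, its change was -1.80, -1.71 and -2.74. With a library left out, under both filters, Sox6 ran from -0.0313 (without R206H library 2) to 0.176, Col2a1 from -0.0207 (without wild-type library 1) to 0.532, Matn2 from -0.0165 (without R206H library 3) to 0.383 and Sox8 from -0.085 to 0.196. Sox8 was negative in 3 settings, at -0.085, -0.0655 and -0.0375 without wild-type library 3, R206H library 1 and R206H library 2.

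Members past the threshold numbered 0 in all settings except those that left out a library, which gave 0 to 1. By exact permutation at the smallest p that the libraries allow, members numbered 0, and 0 to 2 with a library left out. Over all genes, 303 passed, against 129 with a pseudocount of 0.1, 2 with no filter, 587 with a filter at 5 TPM, 200 after quantile normalization, 27 with no trend, 1906 with library weights, 1290 with voom, and 0 to 729 with a library left out. Of the cartilage lists, 4 passed, against 1 with a pseudocount of 0.1, 0 with no filter, 2 after quantile normalization, 1 with no trend, 11 with library weights, 9 with voom, and 0 to 6 with a library left out. The cause of these differences was not tested.

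With the replicate block, limma called 0 genes in all (3301 at an unadjusted p under 0.05), 0 cartilage list genes and 0 members. Same-numbered libraries deviated together with correlations of 0.018, 0.0599 and -0.0283, and wild-type library 1 correlated best with R206H library 3. The labels state no pairing, and these correlations over all genes tested cannot exclude one. In Cnmd, Hapln1, Comp, Col9a1, Col9a2 and Col9a3, library 2 was the highest and library 1 the lowest within both genotypes. In Matn1, Acan, Col11a2 and Cytl1, library 3 was the highest within wild type.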
